A study of Xenopus laevis with 59 samples.

Results

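Transcripts for the proteins of the cytosolic ribosome were followed along the animal-vegetal axis of growing Xenopus laevis oocytes. They were taken as all entries whose symbol, without its .L or .S ending, starts with rpl or rps and a digit or is rpsa, with the rps6k kinases left out. The rule found 106 of 32291 transcripts, by symbol 62 counted to the large subunit (rpl) and 44 to the small subunit (rps and rpsa), under 58 symbols. X. laevis is an allotetraploid, and 48 symbols had a copy on each subgenome (.L and .S), while 10 had 1 copy in the table.

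Each of 12 oocytes, separated by hand from ovaries and therefore able to carry follicle cells, was cut into 5 sections from the extreme animal section A to the extreme vegetal section E, and total RNA of each section was sequenced after rRNA depletion. The very small class held 3 oocytes of 560 to 580 µm (stage III) from female 2, the small class 5 oocytes of 720 to 810 µm (stage IV), the medium class 2 oocytes of 1050 µm (stage V) and the big class 2 oocytes of 1140 and 1200 µm (stage VI in the labels, late stage V in the study's text), the last 3 classes from female 1. No oocyte was treated. Section A of very small oocyte 1 was not analysed here, which left 59 libraries. Since all oocytes of a class came from a single female, the p-values cover the spread between oocytes and not between animals, and size and female cannot be told apart in any comparison with the very small class.

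Each ribosome joins a small subunit, which reads the mRNA, to a large subunit, which forms the peptide bonds, and each subunit is a fixed assembly of rRNA and many proteins. The vertebrate mRNAs of these proteins share a pyrimidine tract at their 5′ end through which their translation is controlled together. The Xenopus oocyte builds up a large store of ribosomes during its growth, on which the early embryo relies.

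The libraries held 1014060 to 7356435 counts, of which the 106 transcripts took 0.453 to 0.972%, or 6286 to 59190 counts. Of the 106, 104 passed the filter on low values (a mean scaled total above 20 counts per oocyte in at least 1 class). The exceptions were rpl3l.L and rpl3l.S, the copies of a striated muscle paralog of rpl3 in mammals, with 3 counts each over all 59 libraries. A few symbols caught by the rule are not, or not only, ribosomal proteins in the strict sense. Rps19bp1 encodes a binding partner of the Rps19 protein, rpl7l1 a paralog that acts in large subunit assembly, and rps27a a fusion of ubiquitin and a small subunit protein. The oocyte marker list (zp2, gdf9, dazl, velo1 and others) summed to 2301 to 4751 CPM in every section (CPM, counts scaled to a common library size with edgeR's TMM factors). No library pair of a class and section agreed within sampling noise (chi-square per transcript 1.39 to 11.2 over 73 pairs).

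The first question was whether ribosomal protein transcripts are spread evenly along the axis. As a sum averaged over the oocytes of a class, they were higher in section A than in sections C to E in each class. The summed level in section A was 7380 and 6693 CPM in very small oocytes 2 and 3, while their sections C to E lay between 5210.3 and 5871 CPM. In small oocytes section A held 5924 to 9117 CPM (median 6519), against 5129 to 7176 CPM in sections C to E. In medium oocytes 1 and 2 section A held 5786 and 6851 CPM, and in big oocytes 1 and 2 it held 6177 and 6772 CPM, against 4800.1 to 6520.1 CPM in sections C to E of these 4 oocytes. Only medium oocyte 1 and small oocyte 1 had a section from C to E above their own section A, and section B was above it in small oocyte 1 and big oocyte 1.

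**Figure D1:**
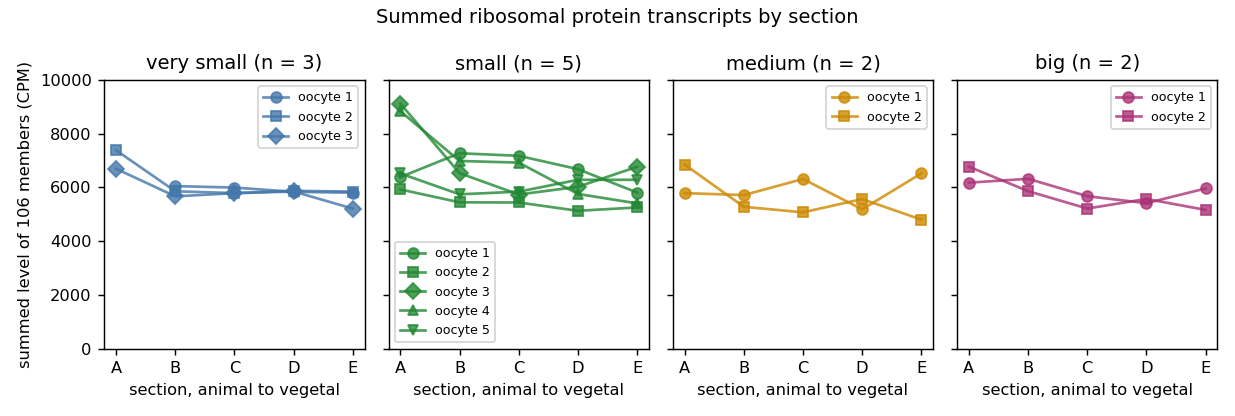
Summed level of the 106 ribosomal protein transcripts (y axis, CPM, from 0) in sections A to E (x axis) for each size class, 1 line per oocyte. Section A of small oocytes 3 and 4 stands highest at 9117 and 8835 CPM, and small oocyte 1, medium oocyte 1 and big oocyte 1 do not have their highest level in section A.

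As shares of the scaled counts of an oocyte, section A held 23.5 ± 0.77% of the ribosomal protein total in very small oocytes (SD, n = 2), 23.0 ± 3.2% in small oocytes (SD, n = 5), 22.2 ± 3.7% in medium oocytes (SD, n = 2) and 22.3 ± 2.0% in big oocytes (SD, n = 2). A transcript at the same CPM in all 5 sections would give 20%. Since each section was scaled on its own, these shares are relative and not portions of the oocyte's RNA. Section E held 18.4 ± 0.83%, 18.6 ± 1.9%, 19.8 ± 3.3% and 19.1 ± 1.5% in the same order of classes. The excess in section A was thus small in every class and smaller than the SD between oocytes in the small and medium classes.

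The animal gradient of each transcript was tested as the log2 difference between section A and the average of C, D and E in the same oocytes ( edgeR's quasi-likelihood test with Benjamini-Hochberg adjustment over 19941 transcripts, called at an adjusted p under 0.1). In small oocytes 53 of the 104 members were higher in section A, where 8.59% of all transcripts were, and 1 was lower, where 9.46% of all were. The median gradient of the members was 0.30 beside 0.00 for all transcripts, and 102 of 104 were above 0. TMM scaling of each library holds the median over all transcripts near 0, so the gradients are relative to the bulk of transcripts. In medium and big oocytes together 40 members were higher in section A (12.2% of all transcripts were) and none was lower (12.2% of all were), with a median of 0.25 beside 0.00 over all and 94 of 104 above 0. In medium oocytes alone 11 members were higher (6.02% of all) and none lower (6.08% of all), with a median of 0.21. In big oocytes alone 24 were higher (7.6% of all) and none lower (6.41% of all), with a median of 0.28. Of the lower direction, 0, 0 and 1 of 104 had an unadjusted p under 0.05 in medium, big, and medium and big oocytes together, and DESeq2's Wald test called 0 in each.

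In very small oocytes the gradients were as large, with a median of 0.31 and 103 of 104 above 0, but the call depended on which oocytes set the spread. With the spread shared by all classes, 1 member was called higher, rpl3.S with 0.45 ± 0.11 (SE) and an adjusted p of 0.0954, where 0.0251% of all transcripts were, and none lower, where 0.14% were. With very small oocytes fitted alone, 63 members were called higher, where 2.82% of 18679 transcripts were. Of the 104, 38 had an unadjusted p under 0.05 in the shared fit, all higher, and DESeq2's Wald test called 0. The single call was also lost without any 1 of the 3 very small oocytes, small oocyte 2 or 5, or either big oocyte.

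The gradient differed widely between oocytes of a class. The median over the 104 members was 0.34 and 0.24 in very small oocytes 2 and 3, -0.11, 0.18, 0.60, 0.61 and 0.05 in small oocytes 1 to 5, -0.05 and 0.47 in medium oocytes 1 and 2, and 0.16 and 0.41 in big oocytes 1 and 2. Small oocytes 3 and 4 and medium oocyte 2 carried most of the gradient of their classes, with 103, 103 and 96 members above 0, whereas small oocyte 1 and medium oocyte 1 had 41 and 47 of 104 above 0. Without section A of small oocytes 3 and 4, chosen after the data were seen as the 2 libraries with the highest summed level, 5 members were called in small oocytes and their median was 0.03. Without small oocyte 4 the count, over both directions as for the 5, was 11 (median 0.16). In medium and big oocytes it was 9 without medium oocyte 2 and 13 without big oocyte 2. In medium oocytes alone it was 0 without oocyte 2 and 17 without small oocyte 3, which enters only through the shared spread. In big oocytes alone it was 1 without oocyte 2, and 15 without very small oocyte 1 or without very small oocyte 2. The shares of all transcripts called in these runs are not given here, so whether the members stayed above them cannot be said.

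**Figure D2:**
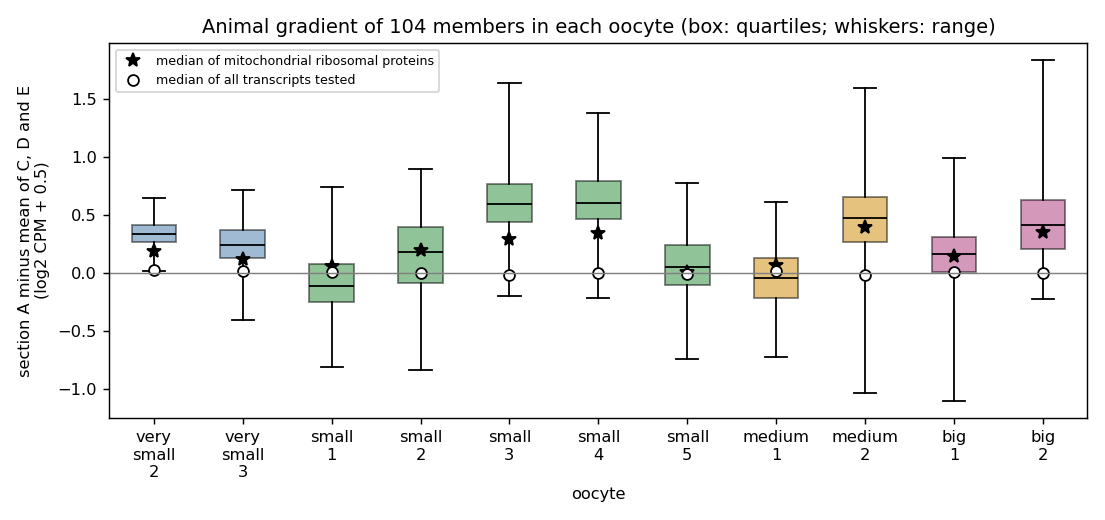
Animal gradient of the 104 members in each of the 11 oocytes with a section A (y axis, log2 of CPM + 0.5, section A against the average of C to E; x axis, oocyte). Boxes are quartiles and whiskers the range over members. Stars mark the median of mitochondrial ribosomal proteins and open circles that of all transcripts tested. The scaling holds the open circles near 0, while the boxes of small oocytes 3 and 4 lie near 0.60.

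No member's gradient was called different between classes. For medium and big minus small oocytes, 0 of 104 passed in either direction (3.39% of all transcripts were higher and 1.97% lower), with 4 at an unadjusted p under 0.05 and 0 by DESeq2. The differences ran between -0.98 and 0.51 with a median of -0.04. For small minus very small oocytes, 0 passed in either direction (0.00501% of all were higher and 0.196% lower), with 2 at an unadjusted p under 0.05 and 0 by DESeq2, and the differences ran between -0.43 and 0.38. Without section A of small oocytes 3 and 4, 3 members were steeper in medium and big oocytes than in small ones. Of those called when an oocyte was left out, 1 was steeper without small oocyte 3, 1 without small oocyte 4 and 2 without big oocyte 1, and 1 was shallower without big oocyte 2. The shares of all transcripts called in these runs are not given here, so these counts are descriptions only.

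Within the 40 members called in medium and big oocytes, 25 were of the large and 15 of the small subunit (60 and 44 of these were tested), and 24 were .L and 16 .S copies. Both copies of 10 pairs were called. The share of all pairs with both copies called is not given here, so that count is a description only. Of the 53 members called higher in small oocytes and these 40, 32 were shared, which is 60.4% of the small oocytes' list and 80.0% of the other. Both lists come from the same fit with a shared spread. The overlap over all transcripts is not given here, so this one is a description only. The median gradient in medium and big oocytes was 0.23 for large subunit and 0.25 for small subunit members.

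Gradients were somewhat steeper in members with few counts. Transcript length and GC content were not at hand, so neither was set against count or gradient. By mean count, the lowest 34 members had a median gradient of 0.31 in medium and big oocytes, the middle 35 one of 0.26 and the highest 35 one of 0.20, with 11, 14 and 15 called. The rank correlation of count and gradient over the 104 members was -0.27, and that of the gradients of .L and .S copies over 47 pairs was 0.67; the copies share their libraries and much of their sequence, so both are descriptions only.

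The 5 steepest members by the rule for named genes were rps29.L, rpl39.L, rpl39.S, rpl36.S and rpl36a.S, all above 0 in each of the 4 oocytes. Rps29 is a zinc-binding protein of the small subunit, and rpl39, a very short protein of the large subunit, lines the exit tunnel of the nascent peptide. For rps29.L, section A held 14.9 and 23.6 CPM in medium oocytes 1 and 2 and 18.7 and 19.5 CPM in big oocytes 1 and 2, against C to E means of 10.5, 7.71, 9.87 and 9.18 CPM in the same order. Section A was above every section from C to E in all 4 oocytes. The gradient was 1.06 ± 0.24 (log2, SE; adjusted p = 0.000671).

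For rpl39.L, section A held 20.7 and 30.7 CPM in medium oocytes and 22.5 and 41.1 CPM in big oocytes, against means of 14.5, 13.2, 20.6 and 11.5 CPM in sections C to E, a gradient of 0.92 ± 0.23 (SE; adjusted p = 0.00255). In big oocyte 1 and medium oocyte 1 the A level lay within the range of C to E. Its other copy rpl39.S held 26.5 and 43.7 CPM in section A of medium oocytes and 29.9 and 47.2 CPM in section A of big oocytes, against means of 19.5, 18.4, 27.3 and 15.9 CPM, a gradient of 0.84 ± 0.25 (SE; adjusted p = 0.0145). Without big oocyte 2 neither copy was called, at 0.48 and 0.49, and without medium oocyte 2 rpl39.S was not called, at 0.68. The call for rpl39.L thus rested on big oocyte 2, and that for rpl39.S on oocyte 2 of each class.

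For rpl36.S, which encodes a large subunit protein, section A held 20.4 and 27.7 CPM in medium oocytes and 34.2 and 37.6 CPM in big oocytes, against means of 15.4, 16.8, 17.2 and 17.8 CPM in sections C to E. The gradient was 0.79 ± 0.15 (SE; adjusted p = 4.78e-05). For rpl36a.S, which encodes another large subunit protein, it was 0.74 ± 0.15 (SE; adjusted p = 0.000219), with 28.0 to 37.1 CPM in section A and C to E means of 18.1 to 21.0 CPM. In both, section A was above every section from C to E in all 4 oocytes.

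**Figure D3:**
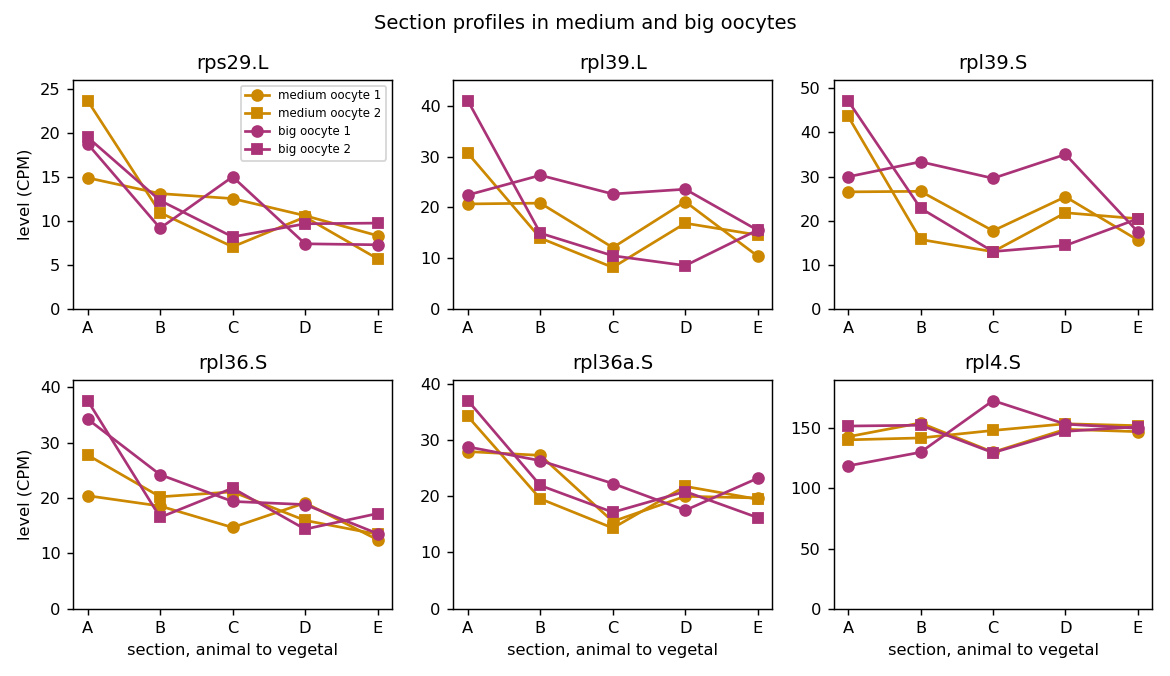
Level (y axis, CPM, from 0) of 5 steep members and of rpl4.S, a member of high CPM without a called gradient, in sections A to E (x axis) of the 2 medium and 2 big oocytes, 1 line per oocyte. In rps29.L (14.9 to 23.6 CPM in section A), rpl36.S and rpl36a.S section A is above sections C to E in every line, in rpl39.L it is not in medium oocyte 1 and big oocyte 1 nor in rpl39.S in big oocyte 1, and rpl4.S is lower in section A of big oocyte 1 (119 CPM, against 150.1 to 173 CPM in sections C to E).

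The 5 members with the highest mean CPM (not per length), rpl3.L, rpl3.S, rpl5.L, rpl6.L and rpl4.S, had shallow gradients or none called. The protein of rpl5 carries 5S rRNA into the large subunit on its way to assembly. For rpl5.L, section A held 165 and 198 CPM in medium oocytes and 162 and 203 CPM in big oocytes, against C to E means of 163, 150, 162 and 152 CPM. The gradient of 0.22 ± 0.08 (SE; adjusted p = 0.058) was seen in oocyte 2 of each class and was near 0 in oocyte 1, and it was not called without either oocyte 2, at 0.13 and 0.11. That of rpl5.S was 0.13 ± 0.10 (SE; adjusted p = 0.45). For rpl6.L it was 0.22 ± 0.09 (SE; adjusted p = 0.068), and the call was lost when very small 3 (0.21), medium 2 (0.12), big 1 (0.21) or big 2 (0.22) was left out.

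The other members of this group did not pass in medium and big oocytes. Rpl3 encodes a protein close to the peptidyl transferase centre, and rpl4 one that reaches into the exit tunnel. Their gradients were 0.06 ± 0.09 for rpl3.L, 0.12 ± 0.08 for rpl3.S and -0.11 ± 0.10 for rpl4.S (SE). Both rpl3 copies were called in small oocytes, rpl3.L at 0.23 ± 0.08 (SE; adjusted p = 0.0639) and rpl3.S at 0.27 ± 0.07 (SE; adjusted p = 0.00852). Both gradients were largest in small oocytes 3 and 4. With section C as reference neither copy was called there (adjusted p = 0.361 and 0.239 by the same test).

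Among small subunit members named for their role, rps6, whose protein is the phosphorylated target of the S6 kinases, was higher in section A from both copies, with gradients of 0.34 ± 0.12 for rps6.L and 0.44 ± 0.11 for rps6.S (SE; adjusted p = 0.0402 and 0.00285). That of rps6.L was not called without medium oocyte 2 or big oocyte 2, at 0.21 and 0.22. Rps3, at the mRNA entry site, had 0.09 ± 0.09 for rps3.L and 0.02 ± 0.14 for rps3.S (SE), neither called. Rps19bp1.L reached 0.28 ± 0.14 (SE; adjusted p = 0.17) and was called at 0.42 without big oocyte 1.

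The paralogs rpl7l1 and rpl22l1 are given apart. Rpl7l1.L was the only member called lower in section A of small oocytes, with -0.20 ± 0.07 (SE; adjusted p = 0.033), and stood at -0.15 ± 0.07 (SE; adjusted p = 0.14) in medium and big oocytes. With section C as reference it stood at -0.19 in small oocytes and was not called (adjusted p = 0.193 by the same test). Its section A level was 86.3 to 96.4 CPM in small oocytes, against C to E means of 95.7 to 107 CPM, and it lay below that mean in 4 of 5 oocytes. Rpl22l1.L, a paralog of the RNA-binding rpl22, averaged 4.35 CPM over the 12 oocytes and had -0.48 ± 0.28 (SE; adjusted p = 0.25) in medium and big oocytes, against 0.50 ± 0.22 (SE; adjusted p = 0.12) in small oocytes, where it was above 0 in 4 of 5. At this depth neither was distinguishable from 0.

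Follicle and connective tissue cells cling to the outside of an oocyte. With sections of equal thickness, the end sections A and E have more of this surface for their volume than section C. A section is a bulk sample, so a larger share of such cells and more RNA in the oocyte's own cytoplasm cannot be told apart. The granulosa and follicle cell list (13 of 14 symbols, 21 entries, 8 past the filter, none at 0 in all libraries) summed to 40.8 to 87.7 CPM in section A and 18.2 to 29.8 CPM in section C of medium and big oocytes. In small oocytes it summed to 24.3 to 78.4 CPM in section A, with 78.4 CPM in oocyte 3, and to 13.1 to 45.6 CPM in section C. Measured like the members, section A against the average of C to E, the summed list differed by 0.41 and -0.04 (log2) in very small oocytes 2 and 3, by 0.39, 0.63, 1.22, 0.95 and 0.66 in small oocytes 1 to 5, by -0.29 and 1.62 in medium oocytes 1 and 2, and by 0.94 and 1.39 in big oocytes 1 and 2. Within the small, medium and big classes it was largest in the oocytes whose member gradients were largest (small 3 and 4, medium 2 and big 2) and was below 0 in medium oocyte 1, where the members' median was -0.05. The stroma, theca and smooth muscle list described below did not keep this order. It differed by 0.33, -0.70, 0.58, 1.59 and 0.73 in small oocytes 1 to 5. In medium oocytes 1 and 2 it differed by -1.36 and 0.50, and in big oocytes 1 and 2 by 0.93 and 0.85. The blood and endothelium list was largest in small 3 and 4, medium 2 and big 2, at 0.69, 1.22, 0.37 and 1.47.

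At the vegetal end the values parted in medium and big oocytes. In section E of medium and big oocytes the granulosa and follicle list summed to 44.6 to 81.9 CPM, and a stroma, theca and smooth muscle list (11 of 12 symbols, 21 entries, none at 0 in all libraries) to 458 to 1124 CPM, against 140 to 243 CPM in section C. The median E minus C difference was 1.52 and 1.93 (log2) over the tested entries of these lists. Over the 104 members it was -0.02, with 1 member called higher in section E, rpl26.L (8.82% of all transcripts were higher), and 2 called lower, rpl17.S and rps13.S (6.65% of all were lower); these 3 are named after their values were seen. In small oocytes 1 to 5 the summed members differed between E and C by -0.30, -0.05, 0.24, -0.36 and 0.11 (log2). The summed granulosa and follicle list differed by 0.36, 0.79, 1.54, 0.74 and 1.35. The stroma, theca and smooth muscle list differed by 0.79, 0.08, 1.38, 0.13 and 1.77, and all 3 were largest in oocytes 3 and 5. The part of such cells in the animal gradient was not tested beyond these values. A blood and endothelium list (10 of 15 symbols, 18 entries, none at 0 in all libraries) held 10.4 to 109 CPM in any section.

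Other lists were measured in the same way, beside 8.59% of all transcripts higher in section A of small oocytes and 12.2% in that of medium and big oocytes. Of the 97 mitochondrial ribosomal protein transcripts tested (103 in the table), 25 were higher in section A of small oocytes and 28 in that of medium and big oocytes, none was lower in either, and their medians were 0.21 and 0.23. The 5 ribosomal components outside the rule (rplp0, fau and others) had 4 and 2 called higher, none lower, and medians of 0.42 and 0.17. Of 64 translation factors, 13 and 9 were higher and 1 and 2 lower, with medians of 0.11 and 0.04. Of 57 ribosome assembly factors, 6 and 6 were higher and 2 and 8 lower, with medians of 0.02 and -0.09. The shares of translation and assembly factors called higher in medium and big oocytes lay near that of all transcripts. No test was made of one list against another.

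The second question was how the total per oocyte changes with growth. Totals are relative, as CPM of the counts summed over an oocyte's sections, and say nothing of the amount of RNA. The members summed to 6063 ± 176 CPM (SD, n = 3) in very small oocytes, to 6296 ± 500 CPM (n = 5) in small, 5498 ± 288 CPM (n = 2) in medium and 5739 ± 89 CPM (n = 2) in big ones. Small oocyte 2, at 5501 CPM, lay within the range of the medium and big oocytes, 5294 to 5802 CPM, and the other 4 small oocytes lay above it. The mitochondrial ribosomal proteins summed to 2082 ± 22, 2249 ± 117, 2019 ± 97 and 2120.0 ± 71 CPM in the same order of classes (SD).

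Between medium and big oocytes and small oocytes, the totals of 43 of 104 members fell, where 10.2% of all transcripts did, and none rose, where 4.9% of all did (1 of 104 rose at an unadjusted p under 0.05, and DESeq2 called 0 higher). The median change was -0.17 beside -0.01 over all transcripts, and 9 of 104 were above 0. By subunit, 29 of 60 large and 14 of 44 small subunit members fell, 23 of them .L and 20 .S copies, with both copies of 12 pairs. How many of all pairs fell in both copies is not given here, so the count of pairs is a description only. Of the 97 mitochondrial ribosomal proteins 15 fell and none rose, with a median of -0.15. Of the 64 translation factors 4 rose and 9 fell, with a median of -0.01.

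The count rested on several oocytes. It was 66 without small oocyte 2, 26 without small oocyte 4, 16 without medium oocyte 2 and 27 without big oocyte 2, all of them lower. Without section A of small oocytes 3 and 4 it was 23. The shares of all transcripts called in these runs are not given here. Stroma, theca and smooth muscle genes rose in the same comparison, with 5 of 20 called, none lower, and a median of 1.19, and no granulosa and follicle entry was called among 8; their part in the fall was not tested.

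The largest falls by the rule for named genes were those of rps29.S, rpl36.S, rpl15.S, rpl10a.S and rps29.L. For rps29.S, medium oocytes held 9.7 and 7.6 CPM and big oocytes 10.8 and 8.1 CPM, against 11.2 to 16.1 CPM (median 15.2) in small oocytes. Every later oocyte lay below every small oocyte, a change of -0.70 ± 0.13 (log2, SE; adjusted p = 0.00414). Rps29.L fell by 0.52 ± 0.11 (SE; adjusted p = 0.010), to 9.8 to 12.4 CPM in medium and big oocytes, against 14.2 to 18.4 CPM in small oocytes.

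Rpl36.S held 18.1 and 18.0 CPM in medium and 23.4 and 20.8 CPM in big oocytes, against 23.9 to 35.7 CPM (median 33.7) in small oocytes, a change of -0.64 ± 0.11 (SE; adjusted p = 0.00261). Rpl15.S, whose protein lies deep in the large subunit, held 45.0 and 44.3 CPM in medium and 52.2 and 47.7 CPM in big oocytes, against 59.9 to 77.4 CPM (median 70.8) in small oocytes. Its change was -0.55 ± 0.08 (SE; adjusted p = 0.00084). Rpl10a.S, a protein of the L1 stalk through which spent tRNA leaves, changed by -0.52 ± 0.08 (SE; adjusted p = 0.0021), with 42.6 to 49.4 CPM in medium and big oocytes, against 54.5 to 77.4 CPM in small oocytes. The groups did not overlap in any of these 5, by the rule that chose them. The steep-gradient members rpl39.L and rpl36a.S fell as well, by 0.65 and 0.39.

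Other members moved less. Rpl4.S was not called, at -0.04 ± 0.04 (SE; adjusted p = 0.56), and had 147 and 147 CPM in medium and 142 and 145 CPM in big oocytes, against 146 to 154 CPM in small oocytes. Rpl3.S passed the test at -0.17 ± 0.06 (SE; adjusted p = 0.072), and rpsa.S at -0.16 ± 0.04 (SE; adjusted p = 0.021). The call for rpl3.S was lost when 1 of 8 oocytes was left out (very small 1 and 3, small 1, 3 and 4, medium 2, big 1 and 2), at -0.18 to -0.12. Rps3.S passed at -0.20 ± 0.06 (SE; adjusted p = 0.067), and was lost without any 1 of the same 8, at -0.20 to -0.15. Rps6.L fell by 0.27 ± 0.07 (SE; adjusted p = 0.023) and was not called without medium oocyte 2, at -0.22.

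**Figure D4:**
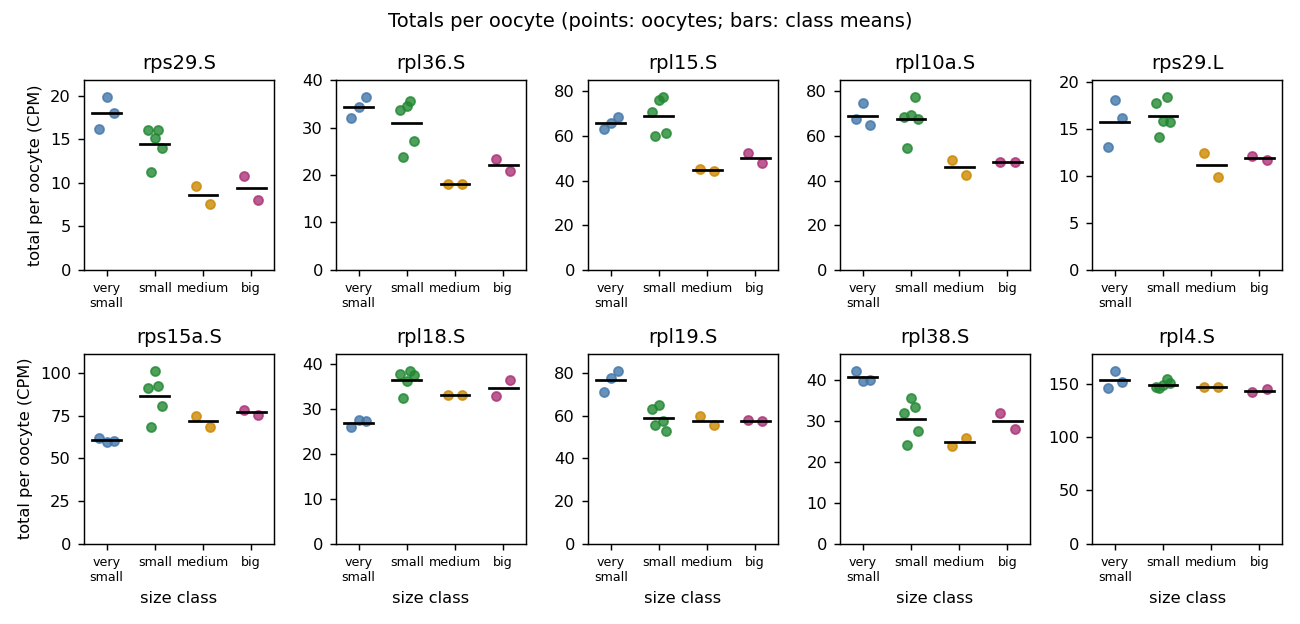
Total per oocyte (y axis, CPM, from 0) of 10 members in the 4 size classes (x axis), with points for oocytes and bars for class means. The first 5 are the members with the largest named falls in medium and big against small oocytes, where no points overlap; rps15a.S and rpl18.S are higher and rpl19.S and rpl38.S lower in small against very small oocytes; rpl4.S lies between 142 and 162 CPM.

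Between small and very small oocytes, which also differ in female, 19 of 104 members rose and 7 fell, while 23% of all transcripts rose and 21.3% fell. The median change was 0.06 beside 0.02. Rps15a.S held 68.2 to 101 CPM (median 91.4) in small oocytes, against 59.9 to 62.2 CPM in very small ones, a change of 0.52 ± 0.10 (SE; adjusted p = 0.000854). Rpl18.S rose by 0.44 ± 0.07 (SE; adjusted p = 0.000121), with 32.5 to 38.5 CPM in small oocytes, against 26.1 to 27.6 CPM. Rpl7l1.L and rps4x.L rose by 0.20 and 0.18.

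Among those that fell, rpl38.S held 24.1 to 35.5 CPM (median 32.1) in small oocytes, against 39.7 to 42.2 CPM in very small ones, a change of -0.41 ± 0.10 (SE; adjusted p = 0.00598). Rpl38 is known in mouse for its role in the translation of Hox mRNAs. Rpl19.S fell by 0.38 ± 0.07 (SE; adjusted p = 0.000611), with 52.7 to 65.2 CPM, against 71.3 to 81.0 CPM. Rps29.S, rpsa.L and rps3a.L fell by 0.31, 0.28 and 0.19. Rps29.S was not called without very small oocyte 2 or 3 or small oocyte 2 or 5, at -0.31 to -0.23, nor rps3a.L without very small oocyte 1 or 2, at -0.20 and -0.14. From sections B to E alone, which every oocyte has, rps3a.L stood at -0.09 and was not called. The count of 26 was 14 without very small oocyte 1 and 13 without very small oocyte 3.

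Big and medium oocytes were not told apart. No member's total was called in either direction (0.00501% of all transcripts were higher and 0% lower), with 4 of 104 at an unadjusted p under 0.05 and 0 by DESeq2. The members' changes ran between -0.10 and 0.32 with a median of 0.07, and 2 oocytes a class limit what could be seen.

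The third question was the balance between the homeologs. The L share is the percentage of a pair's counts that came from the .L copy; the copies can differ in length and in how many reads match both, so the share describes counts. Over the 47 pairs with enough counts, the summed L share was 53.1 ± 0.09% (SD, n = 3) in very small oocytes, 52.9 ± 0.27% (n = 5) in small, 52.9 ± 0.20% (n = 2) in medium and 53.0 ± 0.67% (n = 2) in big ones. It moved by less than the spread between big oocytes. Of the 47 pairs, 25 had a mean L share above 50%.

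Single pairs ranged from 26.5% for rps21 and 29.3% for rpl38 to 69.9% for rps16 and 71.1% for rps3 (means over 12 oocytes). Rps21 and rps16 are named here after their values were seen. In 42 of the 47 pairs, or 89.4%, the L share lay between 33.3 and 66.7%, so that neither copy gave more than 66.7% of the counts. Over all 7071 pairs of the series 3381, or 47.8%, lay in that range. All pairs with a mean sum above 20 counts entered, and they were not matched to the member pairs for counts. Values set beside those of all pairs are therefore descriptions only. Within a pair the class means differed by 3.68 percentage points in the median pair, beside 4.11 over all pairs, and by at most 10.3 points, in rpl19. For rpl4, a pair with 46.4% on average, the class means lay between 46.1 and 47.0%.

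**Figure D5:**
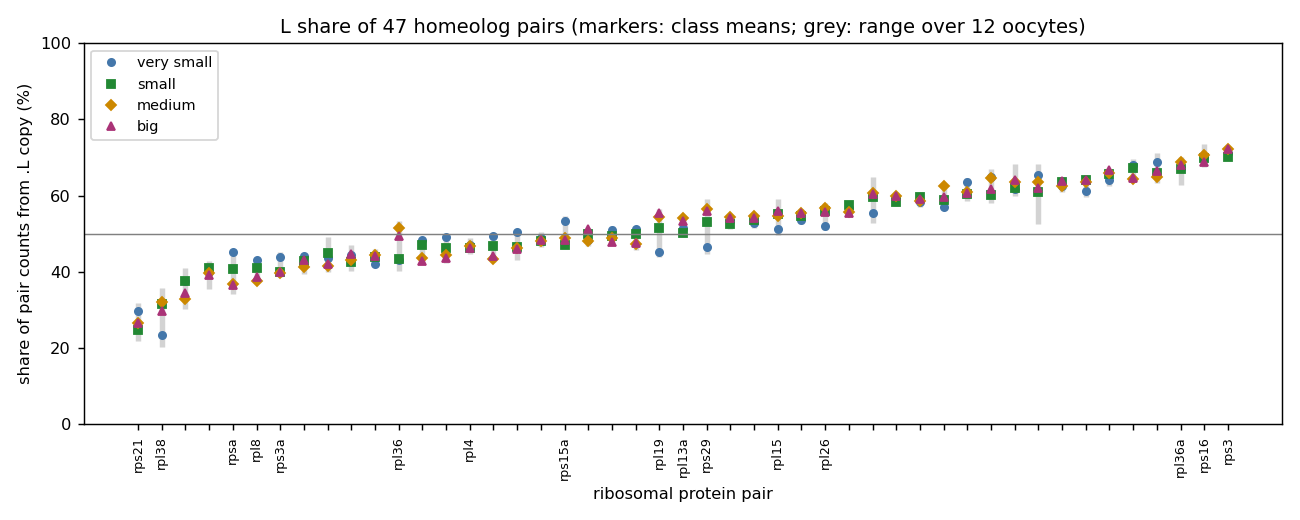
L share of the counts of 47 ribosomal protein pairs (y axis, %, from 0 to 100; x axis, pairs ordered by mean share, with those described in the text labelled), with markers for class means and grey bars for the range over 12 oocytes. Pair means run between 26.5% for rps21 and 71.1% for rps3, and the markers of a pair lie close together except in pairs such as rpl19, rps29 and rpl38, where very small oocytes stand apart.

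The L to S ratio was tested per oocyte with limma on log2 ratios, with adjustment over 7071 pairs. Between small and very small oocytes it was higher in 6 of 47 member pairs and lower in 10, where 22.3% and 20.4% of all pairs were. For rpl38, the L share was 28.5 to 35.7% in small oocytes, against 20.3 to 26.8% in very small ones, a log2 ratio change of 0.59 ± 0.16 (SE; adjusted p = 0.018). For rpl19 it was 49.4 to 53.4%, against 44.0 to 45.9%, a change of 0.37 ± 0.06 (SE; adjusted p = 0.0014). For rps29 it was 51.1 to 55.8%, against 44.6 to 47.6%, a change of 0.38 ± 0.09 (SE; adjusted p = 0.010). In all 3 the groups did not overlap, but these pairs were chosen for the size of their called change. How many of all 7071 pairs had groups that did not overlap is not given here.

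In the other direction rps15a had 46.4 to 47.5% in small oocytes, against 52.0 to 54.6% in very small ones, a change of -0.37 ± 0.06 (SE; adjusted p = 0.0014). Rps21 changed by -0.37, rpsa by -0.26 and rps3a by -0.24, and rpl26 and rpl15 by 0.23 and 0.22. The rpsa protein, also known as a laminin receptor, belongs to the small subunit. The count of 16 was 9 without very small oocyte 1 or without very small oocyte 2. Rpl15 was not called without any 1 of 8 oocytes, at 0.18 to 0.26, rpsa without any 1 of the 3 very small oocytes or small oocyte 5, at -0.27 to -0.24, rpl26 without very small oocyte 2 or 3 (0.20 and 0.19) and rps21 without very small oocyte 3 (-0.30).

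Between medium and big oocytes and small oocytes the ratio was higher in 3 of 47 pairs and lower in 1, where 1.95% and 1.87% of all pairs were. For rpl36 the L share was 53.2 and 49.7% in medium and 48.3 and 50.7% in big oocytes, against 40.2 to 47.1% in small oocytes. The ratio change was 0.42 ± 0.10 (SE; adjusted p = 0.071), with the .S copy falling as given above. For rpl13a it was 0.20 ± 0.05, for rps3 0.16 ± 0.04 and for rpl8 -0.17 ± 0.04 (SE; adjusted p = 0.071, 0.071 and 0.097). The 4 calls depended on single oocytes. The count was 0 when small 3, small 4, medium 1, medium 2 or big 1 was left out, 1 when very small 1, very small 3, small 5 or big 2 was left out, and 2 without small 1. The ratios of the 4 pairs lay between 0.37 and 0.47, 0.19 and 0.21, 0.14 and 0.18, and -0.18 and -0.15 in the runs that lost the call.

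The animal gradients of the copies were called different in 3 of 47 pairs in medium and big oocytes, steeper for .L in 1 (8.67% of all pairs) and steeper for .S in 2 (9.09% of all pairs). For rpsa, .L held 66.4, 109, 78.8 and 73.9 CPM in section A of medium oocytes 1 and 2 and big oocytes 1 and 2, against C to E means of 56.3, 47.2, 67.0 and 49.9 CPM. Its .S copy held 95.6, 112, 116 and 133 CPM, against 99.6, 94.8, 105 and 102 CPM. The difference was 0.37 ± 0.10 (log2, SE; adjusted p = 0.0069), and was not called without medium oocyte 2 (0.22). In big oocytes alone it was 0.13 ± 0.14 (SE), and in medium oocytes alone 0.61 ± 0.14 (SE).

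For rpl36 the difference was -0.49 ± 0.17 (SE; adjusted p = 0.050) and for rpl36a -0.56 ± 0.20 (SE; adjusted p = 0.063), the .S copies of both being among the steepest members. The first was not called without medium oocyte 1 (-0.31) or without either big oocyte (-0.49), the second not without medium oocyte 1 (-0.44) or big oocyte 2 (-0.35). The share of pairs called was below that of all pairs in both directions.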

How the data were processed

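The authors trimmed the paired reads with Trimmomatic, removed rRNA and mitochondrial reads with SortMeRNA, aligned with STAR 2.5.2b to the X. laevis v9.1 genome and counted per gene with htseq-count; the deposited values are raw counts per transcript and section, with no normalization. How reads matching both homeologs were counted is not given in the sources used here. The members and lists were chosen with earlier results of these data known. Of the members, 91 of 106 matched a RefSeq symbol (v10.1, names only), 1 a synonym and 14 neither; no coordinates were used.

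Counts were tested in R 4.3.3 with edgeR 4.0.16 (TMM, quasi-likelihood). Gradients came from 1 fit of 59 libraries with the oocyte as a replicate block and a section effect per class (31 residual degrees of freedom), since same-numbered sections of a class are cut from the same oocyte by the labels; numbers do not pair oocytes across classes. Totals came from counts summed per oocyte, where very small oocyte 1 lacks section A. Homeolog ratios, log2((L + 0.5)/(S + 0.5)), were tested with limma 3.58.1 in pairs with a mean sum above 20 counts. The threshold was an adjusted p (Benjamini-Hochberg) under 0.1. Levels per oocyte are log2(CPM + 0.5). The SE of an edgeR change is its absolute value over the root of F. DESeq2 1.42.0, other scalings, filters, sections and each oocyte left out were the alternatives. The fits were run on simulated counts, drawn independently for each transcript and library, with changes larger than most members' gradients. Shifts shared by the members of a library were not simulated, so these runs do not cover them. Intervals and p-values cover these oocytes only, and library depth (1014060 to 7356435 counts) limits members of few CPM. The 7 other deposited tables (counts divided by the authors' DESeq2 size factors, and sums over sections) were not used.

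Named genes were the 5 members of highest mean CPM; for the gradient in medium and big oocytes and for 2 total contrasts, up to 5 called members a direction with the largest change, a mean of at least 100 counts and the same sign in every oocyte (totals: groups not overlapping); up to 5 called pairs a direction for each ratio test; members below the filter; and members listed by role. Some named members are not reported here.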

Additional observations from a re-analysis of the deposited data

Results flagged for a closer look

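Rpl7l1.L was the 1 named member whose animal gradient had opposite signs in every oocyte of 2 groups. It was below 0 in all 4 medium and big oocytes (mean -0.16 on the log2 scale of CPM + 0.5) and above 0 in both very small oocytes with a section A (0.19 and 0.03). The difference between these groups was not tested, and the 2 groups come from different females. None of 82 values tested among the 5 small oocytes lay far enough from the others to be called an outlier; chance alone would flag about 1 in 20.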

How the results depend on the processing

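The oocyte is the replicate block of the gradient fits. Members called in the gradient test are counted here over both directions. Without the block they numbered 0 in very small, 47 in small, 8 in medium, 13 in big and 37 in medium and big oocytes. With it they numbered 1, 54, 11, 24 and 40, the 54 including rpl7l1.L, which was lower in section A. Without the block both differences between classes stayed at 0, and 3 pairs differed between copies, as with it. In very small oocytes the count of 1 was 0 at an adjusted p under 0.05, with section C as reference, with sections A and B against D and E, with DESeq2 size factors, with TMM factors made without the members and by DESeq2's Wald test, 3 with section E as reference, 10 with no filter on low counts and 63 fitted alone. With section C as reference the counts were 14 in small, 1 in medium, 5 in big and 20 in medium and big oocytes. With section E as reference they were 7 in medium and 9 in big oocytes, and 1 for medium and big minus small. Sections A and B against D and E gave 12 in big and 24 in medium and big oocytes. An adjusted p under 0.05 gave 7 in medium and 12 in big oocytes, 16 of 26 totals for small minus very small and 0 of 4 ratios for medium and big minus small. With no filter on low counts there were 20 in medium oocytes, 2 for medium and big minus small and 0 ratios, and with a mean sum above 200 counts 8 ratios. Without section A of small oocytes 3 and 4, chosen after seeing the data, the counts were 5 in small oocytes, 3 for medium and big minus small, and 23 totals. Apart from very small oocytes fitted alone, the shares of all transcripts or pairs called in these settings, or with an oocyte left out, are not given here.

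Leaving out each oocyte in turn gave ranges of 0 to 1 in very small, 11 to 81 in small, 0 to 17 in medium, 1 to 31 in big and 9 to 45 in medium and big oocytes, 0 to 2 and 0 to 0 for the differences between classes, 13 to 39 and 16 to 66 totals (small minus very small; medium and big minus small), 0 to 0 for big minus medium, 9 to 16 and 0 to 3 ratios, and 2 to 4 pairs between copies. Single members and pairs were followed through these settings only where named, so changes of sign in other members are not covered. Among the named members, gradients in medium and big oocytes that changed sign, none of them called, were those of rpl3.L (-0.055 with section E as reference, -0.042 for A and B against D and E, -0.091 to 0.21 over oocytes left out, negative without medium oocyte 2 or big oocyte 2), rps3.S (-0.068 and -0.0090 in the same settings, -0.12 to 0.16, negative without medium oocyte 2 or big oocyte 1), rpsa.S (-0.054 with section C as reference), rpl4.S (-0.24 to 0.016, positive without big oocyte 1) and rpl5.S (-0.0039 to 0.25, negative without medium oocyte 2). Totals for medium and big minus small that did were those of rpl22l1.L (0.063 from sections B to E, -0.26 to 0.042 over oocytes left out, positive without medium oocyte 2) and rps3.L (0.0058 from sections B to E, 0.0030 without section A of small oocytes 3 and 4). Of the other values for single members and pairs, 1176 kept their direction and call, 133 lost the call and 8 gained it. The causes were not tested. The number of medium and big oocytes and the members of few CPM limit what could be seen.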
